A study of Arabidopsis thaliana with 19 samples.

Results

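Histone transcripts were followed in an autopolyploid series of Arabidopsis thaliana, the thale cress, through 7 genes chosen by name. They were 4 genes of the core histone H2B (HTB1, HTB2, HTB4 and HTB11), the H3 variant gene MGH3, and the linker histone genes HON4 and HIS1-3. Each of the 7 had 1 probe set that the platform annotation assigned to it alone, out of 13350 genes measured in that way and 22746 probe sets tested.

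Every sample was 1 whole seedling, 2 weeks old, raised on Murashige and Skoog medium and hybridised alone to an Affymetrix array, so the spread within a group is the spread between plants. The 4 groups were paternal-excess triploids, called 3x(p) here as in the labels (n = 5), maternal-excess triploids, called 3x(m) (n = 5), tetraploids, called 4x (n = 5), and diploids, called 2x (n = 4). Both kinds of triploid have 3 genome copies, the additional set coming from the father in 3x(p) and from the mother in 3x(m). The labels name no other genotype or treatment, and the accession of the plants is not given in the sources used here. All values are log2 signals that the authors had normalised with RMA, a method that forces the arrays to the same overall distribution, so a value is relative to the rest of the seedling's transcripts and not an amount per cell or per genome.

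Core histones form the protein spool around which nuclear DNA is wound. Most core histone genes are transcribed mainly while a cell copies its DNA, in the cell cycle or in endoreduplication. H2B pairs with H2A in that spool, and in plants it is encoded by many similar genes. Linker histones of the H1 type bind the DNA between spools and help to compact it. HIS1-3 is a short, divergent H1 known in Arabidopsis for its induction by drought and abscisic acid, the hormone of water deficit. HON4 encodes a protein with the globular domain of H1 joined to AT-hook DNA-binding motifs. MGH3 encodes an H3 variant of the male germ line, known from pollen.

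The HTB1 probe set (261411_at, locus AT1G07790) and the MGH3 probe set (255815_at, AT1G19890) measure genes on chromosome 1. The HIS1-3 probe set (265817_at, AT2G18050) lies on chromosome 2, and those of HTB11 (252560_at, AT3G46030) and HON4 (258141_at, AT3G18035) on chromosome 3. The probe sets of HTB2 (249916_at, AT5G22880) and HTB4 (247652_at, AT5G59910) lie on chromosome 5. None of the 7 genes is on chromosome 4. In the gene order of the TAIR10.1 assembly, 3 of the H2B genes have another named histone locus nearby. HTB1 is separated from AT1G07820 by 2 protein-coding genes, and HTB4 from HTA6 and HTB11 from HTB9 by 4 each. For HTB2, MGH3, HON4 and HIS1-3 the nearest named histone locus was 295 to 1173 protein-coding genes away.

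Array medians lay between 5.80 and 5.89. The leaf gene RCA, which encodes Rubisco activase, was at 13.7 to 14.0 in all 19 seedlings, and the root gene PYK10, a root beta-glucosidase, at 12.2 to 12.8. The root hair wall genes were uneven: XTH26 ran from 3.98 to 8.61, EXPA7 from 5.04 to 7.94 and EXPA18 from 5.45 to 8.38. Of 8 pollen and sperm genes with a probe set of their own, 5 were among the dimmest 30% of probe sets. Maternal-excess seedling 4 stood apart from the other 18 arrays: its chromosome 4 genes lay 0.125 above its other genes, against −0.0045 to 0.0017 in the others. This seedling also had the highest HTB1, HTB2 and HTB4 values and the lowest HIS1-3 value of the series. Results that rest on it are therefore given with and without it where both were computed.

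The 4 H2B genes did not differ between ploidy groups beyond the spread between seedlings. HTB1 read 8.10, 7.96, 8.84, 8.08 and 8.66 in paternal-excess seedlings 1 to 5, 8.48, 8.17, 8.19, 9.34 and 8.29 in maternal-excess seedlings, 8.47, 7.95, 7.83, 8.32 and 8.28 in tetraploids, and 8.12, 8.56, 8.01 and 8.39 in diploids. HTB2 read 6.14, 5.69, 6.86, 5.90 and 6.45 in paternal-excess triploids, 6.55, 6.14, 6.33, 7.43 and 6.25 in maternal-excess triploids, 6.31, 6.11, 5.71, 6.49 and 6.08 in tetraploids, and 5.94, 6.81, 5.39 and 6.31 in diploids. All 4 groups overlapped for both genes, and the same seedlings were high for both: maternal-excess seedling 4, paternal-excess seedling 3 and, within its group, diploid seedling 2.

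HTB4 ranged over 9.33 to 10.12 in paternal-excess triploids, 9.53 to 10.26 in maternal-excess triploids, 9.53 to 9.85 in tetraploids and 9.48 to 9.95 in diploids. HTB11 ranged over 8.58 to 9.65 in paternal-excess triploids, 8.96 to 9.63 in maternal-excess triploids, 8.60 to 9.44 in tetraploids and 8.71 to 9.18 in diploids. Again paternal-excess seedling 3 and maternal-excess seedling 4 were the highest of their groups, and HTB11 differed from the other H2B genes in that paternal-excess seedling 3 was marginally the higher of these 2 plants. In the plot of values by seedling, these plants recur at the top of each H2B panel.

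**Figure D1:**
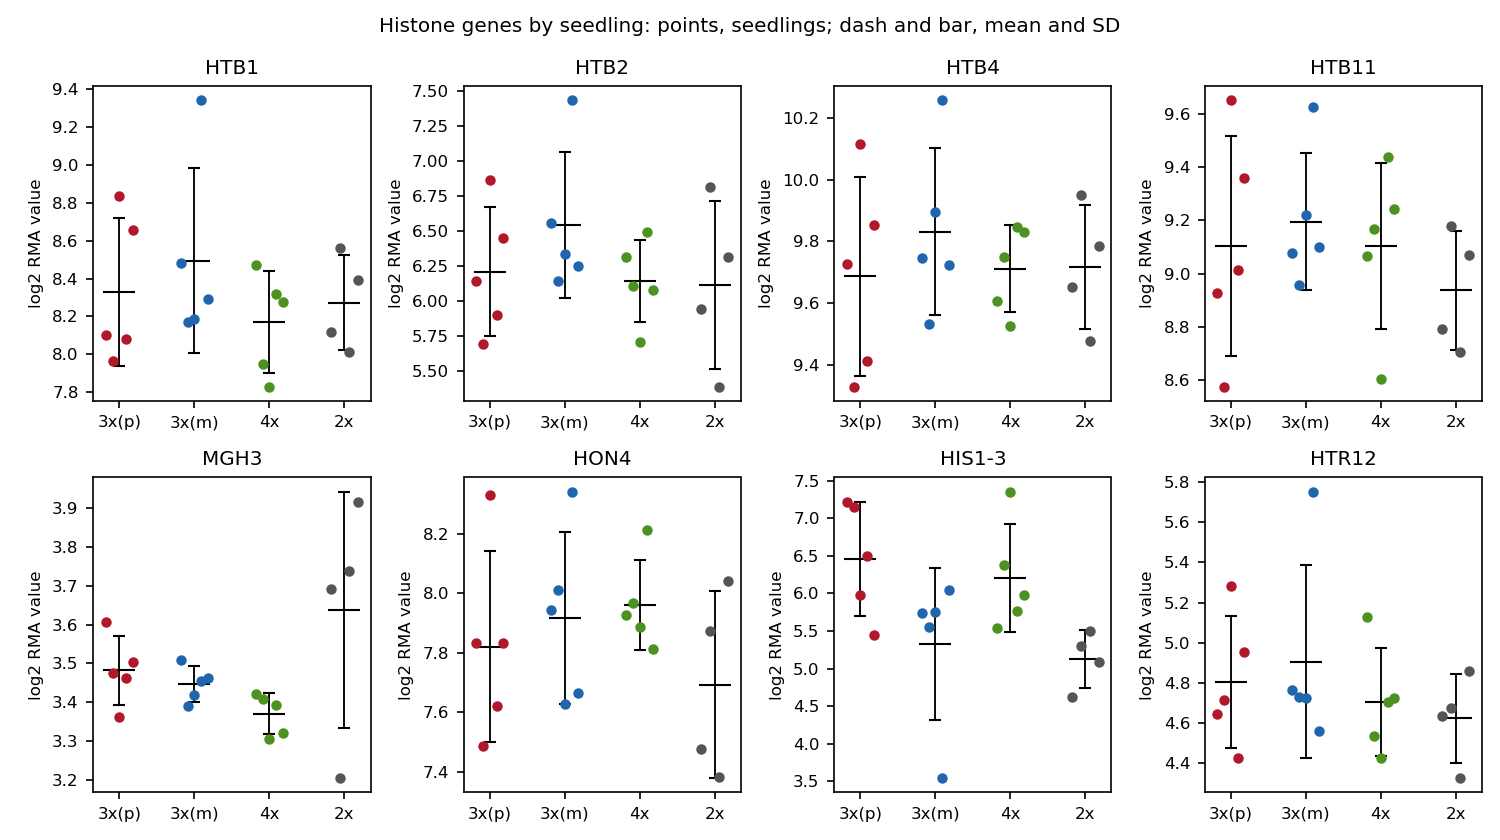
Log2 RMA value of each of the 7 histone genes and of HTR12 in each of the 19 seedlings, by group, with group means as dashes and ± SD as whiskers (n = 5, 5, 5 and 4). The H2B groups overlap throughout, HIS1-3 in 4x lies just above HIS1-3 in 2x, and maternal-excess seedling 4 is highest for HTB1 and lowest for HIS1-3.

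No member of the set was called in any of the 7 comparisons, where called means a limma p-value below 0.05 after Benjamini-Hochberg adjustment over all 22746 probe sets. In paternal-excess triploids against diploids 0 of 7 were called, in a comparison that called 1.15% of all probe sets. The count was also 0 of 7 for maternal-excess triploids against diploids (0.0352% of all probe sets called) and for tetraploids against diploids (0.958%). It was 0 of 7 for paternal- against maternal-excess triploids (0.0044%), for paternal-excess triploids against tetraploids (0.022%), for maternal-excess triploids against tetraploids (0.0747%) and for the slope per genome copy (0.484%). At an unadjusted p below 0.05 limma gave HIS1-3 in paternal-excess triploids against diploids (12.2% of all probe sets) and against maternal-excess triploids (6.09%), HIS1-3 and MGH3 in tetraploids against diploids (12.9%), and MGH3 in the slope (12.4%). It gave 0 of 7 in maternal-excess triploids against diploids (4.33%), in paternal-excess triploids against tetraploids (4.86%) and in maternal-excess triploids against tetraploids (8.49%). With background shares this low, a count of 0 among 7 genes is near the background. The comparisons share groups, the diploids among them, and are therefore not independent of each other.

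The precision of an H2B difference depended on the comparison. In tetraploids minus diploids the 4 differences lay between −0.10 and 0.17, and their 95% confidence intervals together spanned −0.59 to 0.64. HTB4 was bounded most closely, with 9.71 ± 0.14 in tetraploids and 9.72 ± 0.20 in diploids (SD, n = 5 and 4) and a difference of −0.0045 ± 0.157 (SE). In paternal-excess triploids minus diploids the 4 differences lay between −0.03 and 0.17, with a median of 0.08, and in maternal-excess triploids minus diploids between 0.12 and 0.43, with 95% confidence intervals that together spanned −0.26 to 1.04. Without maternal-excess seedling 4 the maternal-excess range was 0.0086 to 0.21. In these whole seedlings, fewer cells of a type and less RNA per cell cannot be told apart. The number of arrays limits the precision: HTB2, the most variable H2B gene, had a standard error of 0.29 against diploids.

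**Figure D2:**
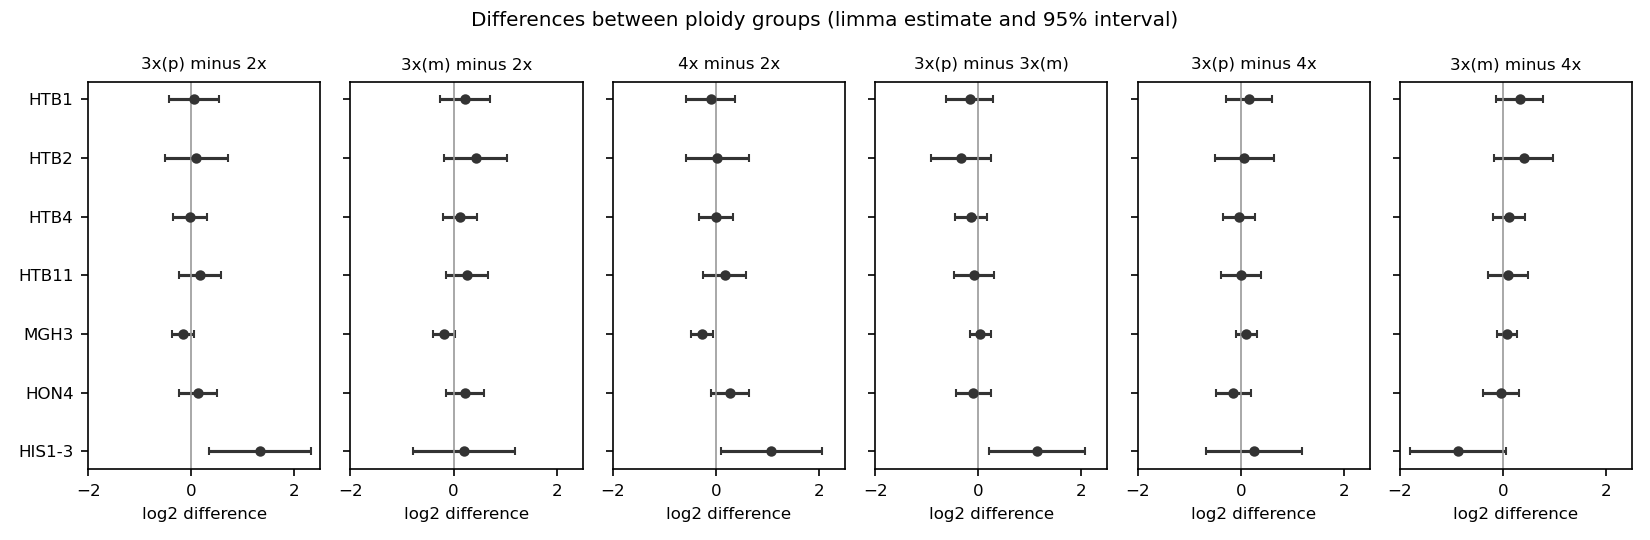
Log2 difference of each histone gene in each of the 6 pairs of groups, with its 95% confidence interval from limma over 19 seedlings. The intervals of the 4 H2B genes and HON4 include 0 in every comparison. Those of HIS1-3 lie above 0 in 3x(p) minus 2x, 4x minus 2x and 3x(p) minus 3x(m), and that of MGH3 lies below 0 in 4x minus 2x, but no gene passed the adjusted threshold.

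Side by side, the reciprocal triploids gave no called difference in core histones. All 4 H2B genes were lower in paternal- than in maternal-excess triploids, by −0.33 (HTB2), −0.17 (HTB1), −0.14 (HTB4) and −0.09 (HTB11), with 95% confidence intervals that together spanned −0.91 to 0.30, where 49.4% of all probe sets had a positive difference. None of these passed (limma adjusted p 0.879 to 0.959). Without maternal-excess seedling 4 the HTB1 difference was 0.05 and the HTB11 difference 0.02, both positive, and without paternal-excess seedling 2 the HTB11 difference was 0.041, so the shared direction is lost when either plant is left out. The same 4 genes were 0.09 to 0.40 higher in maternal-excess triploids than in tetraploids, where 51.3% of all probe sets were higher, with limma adjusted p-values of 0.758 to 0.956. Without maternal-excess seedling 4 those differences were 0.18 (HTB2), 0.11 (HTB1), 0.013 (HTB4) and −0.016 (HTB11).

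Further histone probe sets gave the same picture of overlapping groups. HTR12, which encodes the centromeric H3 (CENH3) and has its own probe set (261058_at), averaged 4.80 ± 0.33 in paternal-excess triploids, 4.90 ± 0.48 in maternal-excess triploids, 4.70 ± 0.27 in tetraploids and 4.62 ± 0.22 in diploids (SD, n = 5, 5, 5 and 4). Its highest seedling was again maternal-excess seedling 4, at 5.75, followed by paternal-excess seedling 3, at 5.28. Another 5 probe sets list 8 loci each, HIS4 among them, and cannot be assigned to 1 gene, so they are named here by their identifiers only. One of them, 247692_s_at, read 10.56, 10.12, 11.13, 10.27 and 10.95 in paternal-excess triploids, 10.84, 10.57, 10.70, 11.31 and 10.48 in maternal-excess triploids, 10.66, 10.45, 10.26, 10.88 and 10.52 in tetraploids, and 10.34, 10.84, 10.01 and 10.70 in diploids. Its 2 highest seedlings were the 2 that were highest for HTB2. These 5 probe sets were added after their values had been seen.

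MGH3 was dim throughout, as were most pollen genes. It read 3.61, 3.47, 3.36, 3.46 and 3.50 in paternal-excess triploids, 3.51, 3.39, 3.42, 3.46 and 3.46 in maternal-excess triploids, 3.42, 3.41, 3.30, 3.39 and 3.32 in tetraploids, and 3.69, 3.20, 3.74 and 3.92 in diploids. Its mean over seedlings, 3.48, was below 4.07, the level under which the dimmest 30% of probe sets fall. Of the diploids 3 were above every polyploid seedling and the remaining one was below every other seedling of the series. The tetraploid minus diploid difference was −0.27 ± 0.102 (SE) with a limma adjusted p of 0.252 and an exact two-sided permutation p of 0.0952. Without diploid seedling 2 it was −0.41 and passed, with a limma adjusted p of 0.0105, and the slope per genome copy was −0.19 with an adjusted p of 0.0413, against −0.13 and 0.248 with it. Of the leave-one-out fits, only the one without that diploid called MGH3, which is a dim probe set.

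HON4, the linker histone with AT-hooks, had group means of 7.82 ± 0.32 in paternal-excess triploids, 7.92 ± 0.29 in maternal-excess triploids, 7.96 ± 0.15 in tetraploids and 7.69 ± 0.31 in diploids (SD, n = 5, 5, 5 and 4). It read 7.83, 7.49, 8.33, 7.62 and 7.83 in paternal-excess triploids, 7.94, 8.01, 7.63, 8.34 and 7.67 in maternal-excess triploids, 7.93, 7.97, 7.89, 8.21 and 7.81 in tetraploids, and 7.48, 7.87, 7.38 and 8.04 in diploids. The groups overlapped, and the 2 highest seedlings were those highest for H2B. Its differences from diploids were 0.13 in paternal-excess triploids, 0.23 in maternal-excess triploids and 0.27 ± 0.174 (SE) in tetraploids, with limma adjusted p-values of 0.841, 0.999 and 0.569.

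HIS1-3, the stress-related linker histone, was the most variable of the 7 genes. It read 7.21, 7.15, 5.97, 6.49 and 5.45 in paternal-excess triploids, 5.74, 5.55, 5.76, 3.54 and 6.04 in maternal-excess triploids, 5.54, 6.38, 7.35, 5.76 and 5.98 in tetraploids, and 4.61, 5.30, 5.51 and 5.08 in diploids. Every tetraploid was above every diploid, the lowest tetraploid by a few hundredths. Of the paternal-excess triploids 4 of 5 were above every diploid, and so were 4 of 5 maternal-excess triploids, all but seedling 4. The 4 measured root markers had their higher means in tetraploids and paternal-excess triploids, the groups with the higher HIS1-3 means. Their mean was 8.34 in paternal-excess triploids (7.86 to 8.70 over seedlings), 7.75 in maternal-excess triploids (6.76 to 8.82), 8.90 in tetraploids (8.37 to 9.37) and 7.70 in diploids (7.36 to 7.94). The part of the root markers in the HIS1-3 values was not tested. The lowest value of the series belonged to maternal-excess seedling 4, and from the lowest to the highest seedling the signal spanned 14.0-fold. Its spread within groups, an SD of 0.77, was larger than that of 98.9% of probe sets.

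The order of the HIS1-3 group means was 6.46 ± 0.76 in paternal-excess triploids, 6.20 ± 0.71 in tetraploids, 5.33 ± 1.01 in maternal-excess triploids and 5.13 ± 0.38 in diploids (SD, n = 5, 5, 5 and 4). Neighbours in that order did not differ beyond their spread. The difference was 1.33 ± 0.47 (SE, 95% confidence interval 0.35 to 2.31) in paternal-excess triploids minus diploids, with a limma adjusted p of 0.225 and an exact two-sided permutation p of 0.0317. In tetraploids minus diploids it was 1.08 ± 0.47 (SE, 0.09 to 2.06), with a limma adjusted p of 0.333 and an exact permutation p of 0.0159, the smallest that 5 against 4 seedlings allow. HIS1-3 was the 1 of the 7 genes whose groups did not overlap there, in a comparison where 7.24% of all probe sets had groups that did not overlap. In the other comparisons the groups overlapped for all 7 genes, where 4.85% of all probe sets had no overlap in paternal-excess triploids against diploids, 1.37% in maternal-excess triploids against diploids, 0.743% in paternal- against maternal-excess triploids, 0.901% in paternal-excess triploids against tetraploids and 1.59% in maternal-excess triploids against tetraploids. These permutation p-values are unadjusted, from 42 such tests over the 7 genes. With arrays weighted by their quality the first difference was 1.44 and passed at a limma adjusted p of 0.0436; the second did not pass (adjusted p 0.0705).

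Between the reciprocal triploids HIS1-3 was higher in paternal excess by 1.13 ± 0.443 (SE), with a limma adjusted p of 0.776 and an exact permutation p of 0.0794. This value leans on 1 plant: without maternal-excess seedling 4 it was 0.68, with an adjusted p of 0.924. Maternal-excess triploids differed from diploids by 0.20 (adjusted p = 0.999) and from tetraploids by −0.88 (adjusted p = 0.626), and without that seedling by 0.65 and −0.43, neither of which passed. The slope per genome copy was 0.52 ± 0.261 (SE, adjusted p = 0.428).

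Other water-deficit genes stood beside HIS1-3 in these comparisons as follows. The 5 measured of 33 listed were COR15A, COR15B, COR47, LTI30 and LEA4-5, which encode protective proteins made in drought, cold or seed drying. In paternal-excess triploids all 5 were higher than in diploids (median 0.325, where 49.1% of all probe sets were higher). All 5 were also higher there than in maternal-excess triploids (median 0.453, against 49.4% of all probe sets). Over the 5 genes the mean was 8.82 in paternal-excess triploids, 8.23 in maternal-excess triploids and 8.48 in diploids. The lowest maternal-excess seedling averaged 6.46, below every other seedling of the series. None of the 5 was higher in tetraploids or in maternal-excess triploids than in diploids, although HIS1-3 was. No gene of this list was called in any comparison, and its part in the HIS1-3 values was not tested.

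The 4 H2B genes varied together from plant to plant, within ploidy groups as well as across them. HTB1 and HTB2 had a Pearson r of 0.911 and a Spearman rho of 0.904 over the 19 seedlings, both with a permutation p of 1e-05, the smallest that 100000 permutations can give (adjusted over 21 pairs, 5.25e-05 and 0.000105). The 6 H2B pairs had r of 0.80 to 0.911 and rho of 0.747 to 0.904, and all 6 passed by both measures. Leaving out the 2 seedlings farthest from the median of the first gene gave r of 0.631 to 0.845, and leaving out maternal-excess seedling 4 alone gave 0.731 to 0.855. After each value had its group mean subtracted, r was 0.825 to 0.911, and all 6 pairs passed. These genes encode similar proteins, and their sequences were not at hand. Whether a probe set also takes up transcripts of another H2B gene could therefore not be checked here.

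The deviation of a seedling from each gene's median over all seedlings, taken as the median over the 4 H2B genes, ran from −0.46 in paternal-excess seedling 2 and tetraploid seedling 3 to 0.81 in maternal-excess seedling 4. The signal of the highest seedling over the lowest ran from 1.90-fold for HTB4 to 4.11-fold for HTB2, and was 2.85-fold for HTB1. The within-group SD of HTB2 was 0.47, larger than in 94.7% of probe sets, and that of HTB4 was 0.246, larger than in 75.6%.

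HON4 moved with H2B. Its r with the 4 H2B genes was 0.653 to 0.769 and its rho 0.54 to 0.691, and all 4 pairs passed by both (largest adjusted p of r 0.00372). After subtraction of group means r was 0.726 to 0.832, and without maternal-excess seedling 4 it was 0.543 to 0.707. Without the 2 farthest seedlings it was 0.378 to 0.62, and with that setting the relation to HTB1 (0.378) and HTB4 (0.529) no longer passed. MGH3 was related to none of the others, with r of −0.284 to −0.111.

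**Figure D3:**
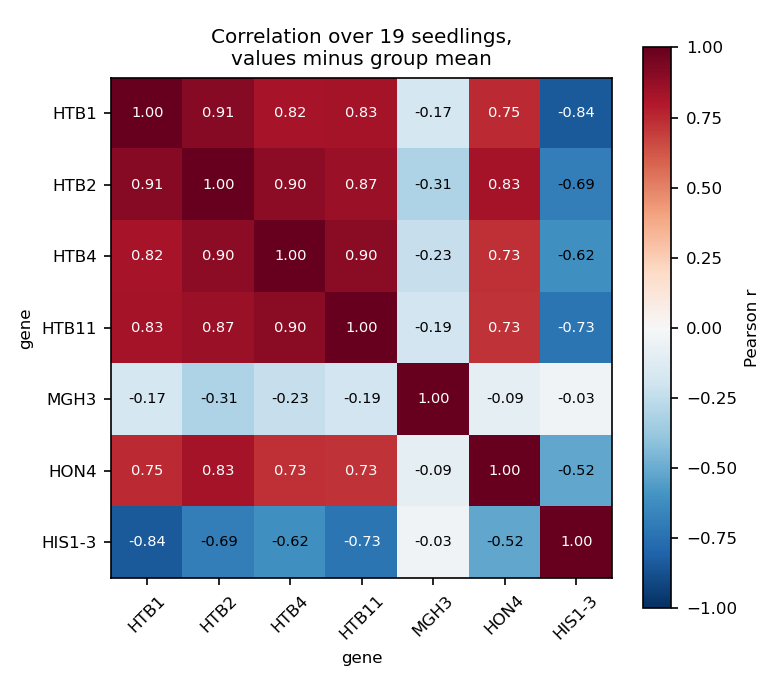
Pearson r between the 7 histone genes over 19 seedlings, on log2 values minus the group mean. The 4 H2B genes and HON4 form a block of positive r from 0.73 to 0.91, HIS1-3 is negative against all of them, and MGH3 stays between −0.31 and −0.03.

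HIS1-3 ran the other way. Where H2B was high HIS1-3 was low: maternal-excess seedling 4 had 9.34 for HTB1 and 3.54 for HIS1-3, while tetraploid seedling 3 had the lowest HTB1 value, 7.83, and the highest HIS1-3 value, 7.35. HTB1 and HIS1-3 had r of −0.706 (p = 0.0012, adjusted 0.00254) and rho of −0.611 (p = 0.0066, adjusted 0.0173) by permutation. After subtraction of group means r was −0.837 (adjusted p = 0.00347). Without maternal-excess seedling 4 it was −0.499 on the values as they stand, which did not pass, and −0.71 on values minus group means, which did (adjusted p = 0.0265). The relation as pooled over groups therefore rests partly on that plant.

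Over the 4 H2B genes r with HIS1-3 was −0.706 to −0.49, and 3 of 4 passed; by rho, −0.611 to −0.284, 1 of 4 passed. With group means subtracted all 4 passed, at r of −0.837 to −0.617. When maternal-excess seedling 4 was left out as well, HTB1 and HTB11 (−0.68, adjusted p = 0.0387) passed and HTB2 (−0.53, 0.0678) and HTB4 (−0.44, 0.228) did not. HON4 and HIS1-3, both linker histone genes, had r of −0.286 (adjusted p = 0.285) and, within groups, −0.52 (adjusted p = 0.0525), so this opposite movement was not shown for them.

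**Figure D4:**
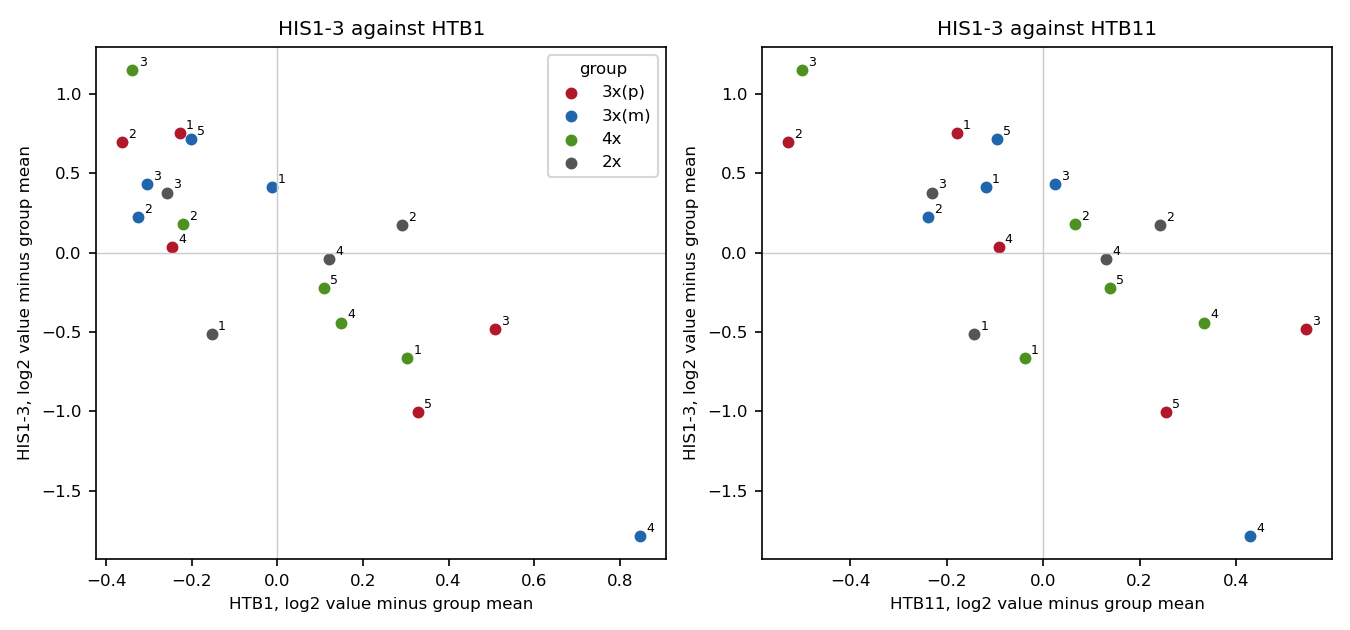
HIS1-3 against HTB1 (left) and HTB11 (right), all as log2 RMA values minus the group mean. Each point is 1 seedling, coloured by group and marked with its number. Points fall toward lower HIS1-3 at higher HTB1 or HTB11. Maternal-excess seedling 4 lies lowest for HIS1-3, at −1.79, and at 0.85 for HTB1 and 0.43 for HTB11.

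Genes of DNA replication and mitosis varied with H2B across the same seedlings. The replication genes were PRL (the licensing factor MCM7), ICU2 (the catalytic subunit of polymerase alpha) and POLD3 (a subunit of polymerase delta), the 3 measured of 40 listed. Of their 12 relations with the 4 H2B genes 11 passed, with r of 0.384 to 0.892, and 9 passed on values minus group means. Without maternal-excess seedling 4 r was 0.302 to 0.835, and without the 2 farthest seedlings 0.114 to 0.856. PRL and HTB2 had r of 0.892 (adjusted p = 0.000153) and rho of 0.911 (adjusted p = 0.000146). The mitotic genes were the Aurora kinases AUR1, AUR2 and AUR3 and the spindle checkpoint gene BUB3.1, the 4 measured of 21 listed. All 16 of their relations with the H2B genes passed, with r of 0.616 to 0.837. Without maternal-excess seedling 4 their r was 0.412 to 0.742, and without the 2 farthest seedlings 0.364 to 0.722. Many genes elsewhere on the array were as close: r of at least 0.6 was found for 6.59% of the other probe sets with HTB1, 5.63% with HTB2, 3.76% with HTB4 and 3.73% with HTB11. By rho, 8 of the 12 replication and 14 of the 16 mitosis relations passed. These p-values come from permutation and are adjusted over 161 relations, of which 104 passed.

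Other chromatin genes divided. The centromeric H3 gene HTR12 had r of 0.90 with HTB1, 0.82 with HTB2, 0.71 with HTB4 and 0.69 with HTB11, and all 4 passed (0.55 to 0.804 without maternal-excess seedling 4). The 5 probe sets that list HIS4 passed in all 20 relations, with r of 0.749 to 0.962 (0.644 to 0.957 without that seedling). In contrast, the histone chaperone and remodeller genes SGA2, ASF1B and ATRX passed in 2 of 12 by r and 3 of 12 by rho, with r of −0.57 to 0.57. The ubiquitin protease genes UBP26 and UBP22, whose products act on H2B, passed in 1 of 8 by r and 3 of 8 by rho, with r of −0.135 to 0.534.

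The water-deficit genes were low where H2B was high. All 20 relations of the 5 genes with H2B passed, with r of −0.829 to −0.513, where 5.46% to 8.71% of the other probe sets had r of at most −0.5 with an H2B gene, and that of HTB1 with COR47 was −0.829 (adjusted p = 0.000523) with rho −0.725 (adjusted p = 0.00351). Without the 2 farthest seedlings the 20 values of r ran from −0.773 to 0.0379, so some rest on those plants; without maternal-excess seedling 4 alone they ran from −0.74 to −0.236, and by rho 16 of the 20 passed. HON4 had r of −0.811 to −0.619 with the 5 genes, all passing, where 8.16% of the other probe sets had r of at most −0.5. HIS1-3 had r of 0.574 to 0.707 with them, all 5 passing by r and 2 by rho, and 0.329 to 0.618 without maternal-excess seedling 4. Of the other probe sets 3.40% had r of at least 0.6 with HIS1-3, and 7.93% had r of at most −0.5. Against the mitotic genes HIS1-3 had r of −0.605 to −0.446, with 2 of 4 passing by r and 0 by rho. Without maternal-excess seedling 4 this was −0.344 to −0.112. MGH3 passed with no gene of any of these lists.

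**Figure D5:**
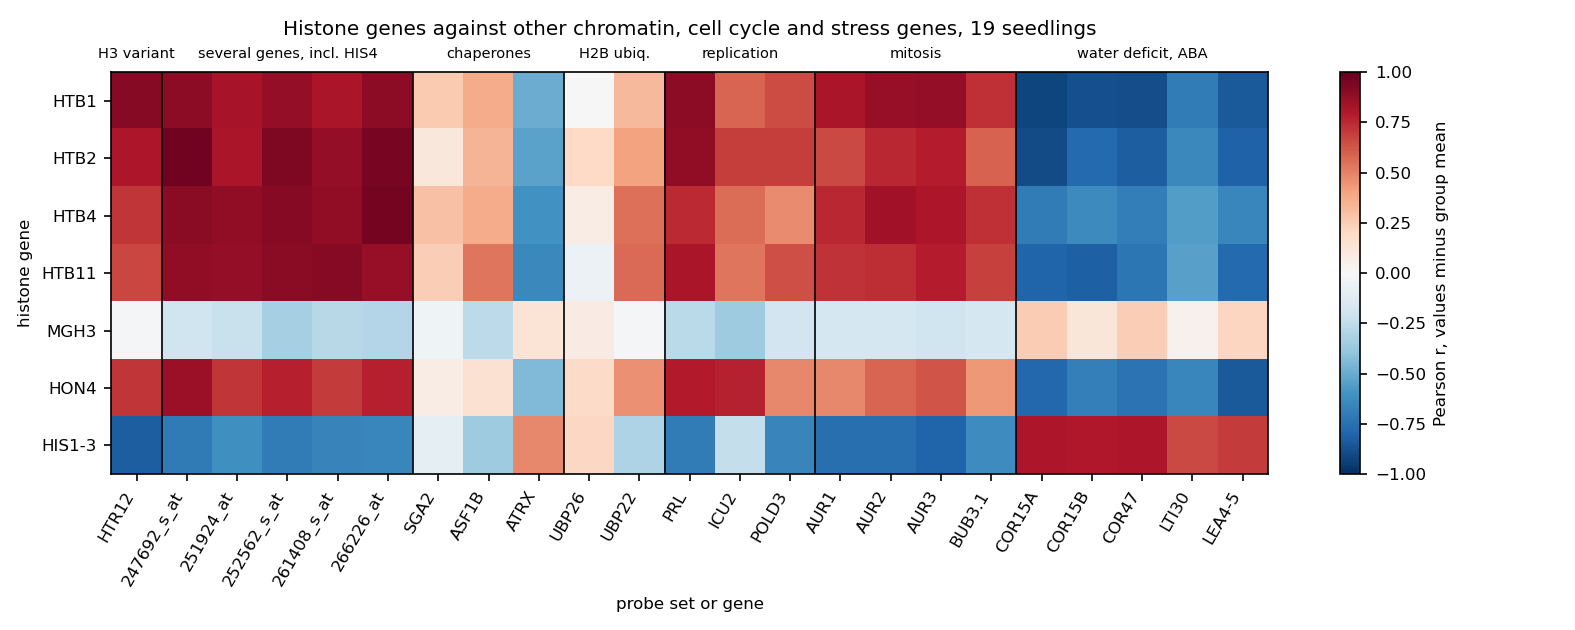
Pearson r of each histone gene (rows) with other histone, chromatin, cell cycle and water-deficit genes (columns) over 19 seedlings, on log2 values minus the group mean. The H2B genes and HON4 are positive with replication and mitosis and negative with water deficit, HIS1-3 has the opposite signs with replication, mitosis and water-deficit genes, and MGH3 is pale throughout.

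Measures of the arrays themselves were set beside these relations. The differences between 3′ and 5′ control probe sets of GAPDH, actin and ubiquitin, which reflect RNA integrity, and the array median and chromosome 4 shift were related to the 7 genes in 35 tests. None passed after adjustment over the 35 (smallest adjusted p 0.201), although the H2B genes had r of 0.374 to 0.503 with the GAPDH difference and 0.41 to 0.518 with the actin difference. The chromosome 4 shift, which separates 1 seedling from the rest, had r of 0.663 with HTB1 and −0.598 with HIS1-3 but rho of −0.189 and 0.0547. The part of these measures in the histone relations was not tested. The first principal component of the values minus group means held 32.7% of the variance within groups. Its r was 0.92 with HTB1, 0.825 with HTB2, 0.721 with HTB4, 0.715 with HTB11, 0.789 with HON4, −0.792 with HIS1-3 and −0.151 with MGH3, given as a description. Maternal-excess seedling 4 alone made up 51.7% of the sum of squared scores on this component. Computed without that plant, the first component held 22.8% of the variance, and its r was 0.812 with HTB1, 0.784 with HTB2, 0.572 with HTB4, 0.685 with HTB11, 0.884 with HON4, −0.473 with HIS1-3 and −0.281 with MGH3.

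The genes most like each histone gene were found by Pearson r of values minus group means over the 19 seedlings, among single-gene probe sets. For HTB1 they were AT1G09750 (0.952), ATLP-1, a thaumatin-like protein gene (0.949), and AT4G00295 (0.941), and for HTB2 AT2G37470 (0.929), XTH16, of the family of cell wall xyloglucan enzymes (0.929), and AT3G13000 (0.926). HTB4 was closest to AT2G37470 (0.954), HTB11 (0.904) and HTB2 (0.895), and HTB11 to HTB4 (0.904), AT4G23820 (0.90) and AT5G15050 (0.897). Some listed histone names, HTB5 among them, matched no gene symbol. A locus given here by number, such as AT2G37470, may therefore itself be a histone gene. For HON4 they were DPE1, a plastid enzyme of starch breakdown (0.959), AT3G18050 (0.935) and AT3G60290 (0.931), where AT3G18050 is separated from HON4 by only 1 protein-coding gene. HIS1-3 was closest to AT3G27350 (0.938), AT1G73480 (0.931) and AT5G04000 (0.924). MGH3 had no close companion: its highest were AT1G52020 (0.799), AT1G68730 (0.743) and AT3G56500 (0.721). On the values as they stand some of these were much less alike, with r of 0.714 for AT4G00295 with HTB1 and 0.149 for AT3G56500 with MGH3. Values of r of at least 0.8 were found for 1.64% of the other 22745 probe sets with HTB1, 1.01% with HTB2, 0.413% with HTB4, 0.488% with HTB11, 0.901% with HON4, 0.805% with HIS1-3 and 0% with MGH3.

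Across ploidy, most related lists held no called gene. Of 39 listed genes with a probe set of their own, the root hair gene XTH26, of the same cell wall family as XTH16, was the only one called, in tetraploids minus diploids (2.62 ± 0.523, SE, limma adjusted p = 0.0172). That comparison called 0.958% of all probe sets. All 4 root markers were higher in tetraploids than in diploids, with a median of 0.98 (49.2% of all probe sets were higher). All 4 were higher in paternal-excess triploids than in diploids, with a median of 0.43 (49.1%). In maternal-excess triploids 3 of the 4 were higher than in diploids, with a median of 0.057 (48.4%). The 4 mitotic genes were all higher than in diploids in each of the 3 polyploid groups, where 48.4% to 49.2% of all probe sets were higher, and none of those differences was called. Their mean was 6.60 in maternal-excess triploids, with seedlings from 5.99 to 7.88, and 6.34 in diploids, with seedlings from 6.06 to 6.47. The maternal-excess differences were not computed without the highest seedling, so their direction may rest on 1 plant. Lists of H2A and E2F genes had no member with a single-gene probe set. Of the H4 list only HIS4 matched a gene symbol, and it had no such probe set. The other H4 names, and several H2B, H3 and linker histone names, found no match, so whether those genes were measured is not known.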

How the data were processed

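RNA of 19 seedlings (2x, n = 4; 3x(m), 3x(p) and 4x, n = 5 each) was labelled with a 3′ IVT kit and hybridised to 1 array each, per the labels' protocols. The deposited table holds log2 expression values that the authors made with RMA, per the submitters' processing notes; the version is not given in the sources used here. Of 22810 probe sets, 64 controls were left out and 22746 tested, with no further filter or transformation. The platform annotation gave 13513 probe sets a single gene and 503 several, and did not list 8730; symbols of 13436 were updated through TAIR10.1. No coordinates are given because no genome build is named.

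The limma package (3.58.1, R 4.3.3) fitted a mean for each group over the 19 arrays, or a slope on genome copies (2, 3 or 4), and p-values were adjusted by Benjamini-Hochberg over all probe sets. Confidence intervals are 95%. Single genes were also tested by exact two-sided permutation over seedlings. Correlations used 100000 permutations, within groups for values minus group means. The fit was tested on simulated data with noise drawn independently for each probe set and array. In 3x(p) minus 2x it called 94% of 50 probe sets changed 2-fold, with 13 false calls. In the seedlings many genes varied together, so this outcome may not carry over to them. No array duplicated another (smallest root mean square difference 0.231). Leaving out seedlings, array weights, a replicate block, a filter on dim probe sets, further quantile normalisation and fits on the compared groups alone were tried as alternatives.

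The 7 genes, the 15 gene lists and the tests were chosen with earlier results of these data known. Named were all 7 genes, other histone genes whose listed name matched a single-gene probe set, list members called or with the smallest p, and the 3 genes most like each histone gene. The deposited normalisation makes every value relative to the rest of the array, and the number of arrays, not read depth, limits the precision.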

Additional observations from a re-analysis of the deposited data

Results flagged for a closer look

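Among 28 groups of seedlings examined, 1 seedling stood far from the rest of its group for 2 of the histone genes, by Dixon's criterion at the 95% level, which chance meets in about 1 in 20 groups. HTB1 in maternal-excess seedling 4 was 9.34, while the other 4 seedlings of its group lay between 8.17 and 8.48. HIS1-3 in the same seedling was 3.54, while the others lay between 5.55 and 6.04. This plant is also the one whose chromosome 4 genes lay 0.125 above its other genes; HTB1 is on chromosome 1 and HIS1-3 on chromosome 2. The part of that shift in the histone values was not tested.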

How the results depend on the processing

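Of 1225 alternative values of the 49 differences of the 7 genes, 3 passed the threshold and 57 changed sign, in 18 differences, and the other alternatives kept the direction and the lack of a call. The 3 calls were HIS1-3 in 3x(p) minus 2x with array weights (1.44), and MGH3 without 2x seedling 2 in 4x minus 2x and in the slope. With array weights, small differences turned negative: HTB2 (−0.15), HON4 (−0.080) and HTB1 (−0.10) in 3x(p) minus 2x, HON4 (−0.020) and HTB1 (−0.023) in 3x(m) minus 2x, HTB2 in 4x minus 2x (−0.12), and HTB2 (−0.032) and HTB11 (−0.090) in 3x(p) minus 4x. The HTB2 slope turned positive with 3x(m) left out (0.0099) and with a further quantile normalisation (0.0090). In all these cases the cause was not tested. Group levels moved by less than 1 SD under that normalisation in all 28 cases.

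Leaving out each seedling in turn moved the difference in 3x(p) minus 2x over −0.14 to 0.060 for HTB4, −0.15 to 0.33 for HTB2 and −0.072 to 0.15 for HTB1. In 4x minus 2x it moved over −0.084 to 0.074 for HTB4, −0.21 to 0.26 for HTB2 and −0.41 to −0.18 for MGH3. In 3x(p) minus 3x(m) it moved over −0.23 to 0.041 for HTB11, −0.23 to 0.0084 for HON4 and −0.29 to 0.045 for HTB1. In 3x(p) minus 4x it moved over −0.13 to 0.065 for HTB4, −0.094 to 0.20 for HTB2 and −0.14 to 0.13 for HTB11. In 3x(m) minus 4x it moved over −0.033 to 0.17 for HTB11 and −0.15 to 0.029 for HON4. For the slope it moved over −0.043 to 0.025 for HTB4, −0.13 to 0.077 for HTB2 and −0.19 to −0.089 for MGH3.

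The number of probe sets called over the whole array depended more on the fit. With 1 seedling left out it was 107 to 356 for 3x(p) minus 2x (262 with all), 1 to 17 for 3x(m) minus 2x (8), 77 to 382 for 4x minus 2x (218), 1 to 4 for 3x(p) minus 3x(m) (1), 2 to 5 for 3x(p) minus 4x (5), 6 to 56 for 3x(m) minus 4x (17) and 25 to 226 for the slope (110). Fits on the compared groups alone called 109, 0, 451, 0 and 1 probe sets in the first 5 of these comparisons. Array weights called 423 in 3x(p) minus 2x, 1017 in 4x minus 2x, 45 in 3x(m) minus 4x and 683 in the slope. The slope called 186 with 3x(m) left out and 223 with 3x(p) left out.

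Seedling numbers were not taken as pairs, because the labels give them no meaning and only 12 of 27 same-numbered pairs correlated above 0.1 (range −0.375 to 0.435). As a hint from the data, 11 of 19 seedlings were closest on average to their own number, where 1 in 5 would be by number alone, so a shared factor behind the numbers was not excluded. A fit with the replicate number as a block called 2 probe sets in 3x(p) minus 3x(m), 8 in 3x(p) minus 4x and 28 in 3x(m) minus 4x, and none of the 7 genes.

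Of the correlations between members, 4 no longer passed without the 2 seedlings farthest from the median: HTB1 with HON4 (0.378), HTB2 with HIS1-3 (−0.501), HTB4 with HON4 (0.529) and HTB4 with HIS1-3 (−0.198). HTB11 with HIS1-3 passed on values minus group means (−0.729). After the data had been seen, maternal-excess seedling 4 was left out as well: HTB1 (−0.499), HTB2 (−0.344) and HTB4 (−0.352) then no longer passed with HIS1-3, and on values minus group means HTB2 (−0.528) and HTB4 (−0.439) did not while HTB11 (−0.680) did. No other pair among the 21 changed its call.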
